A study of Mus musculus with 9 samples.

Results

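The adrenomedullin, apelin and endothelin system of meningeal lymphatic endothelial cells (MLECs) was followed through 10 genes: the peptide genes Adm, Apln and Edn1, the receptor genes Calcrl, Aplnr and Ednrb, the receptor partners Ramp1, Ramp2 and Ramp3, and the enzyme gene Ece1. They were found by gene symbol, and all 10 were among the 24321 genes of the expression table. The table held 9 RNA-seq libraries of MLECs from male mice labelled as 10 weeks old, 3 each from animals given PBS (control), GL261 glioma cells or B16 melanoma cells. Each library came from 10 sorted cells of a pool of 6 mice, and the strain was C57BL/6 throughout. By the labels, MLECs were collected about 3 weeks after GL261 and 2 weeks after B16 injection. The study's account of its results gives 2 weeks for both, and its methods give 2 to 3 weeks. The injection was into the cisterna magna according to the labels and under the dura according to the methods of the study. The sort took CD31+ CD45- cells with LYVE-1 as the lymphatic marker in the labels and in the methods, and with PDPN in the study's account of its results. GL261 and B16 libraries were also joined as 6 tumor-associated libraries.

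Adrenomedullin, apelin and endothelin-1 are short secreted peptides that act on vessels through G protein-coupled receptors. Adrenomedullin (Adm) binds the calcitonin receptor-like receptor (Calcrl), which reaches the cell surface with a receptor activity-modifying protein. Ramp2 or Ramp3 makes it an adrenomedullin receptor and Ramp1 makes it a receptor for the related neuropeptide CGRP, and mice that lack Adm, Calcrl or Ramp2 fail to form normal lymphatic vessels. Apelin (Apln) acts on Aplnr, and endothelin-1 (Edn1), a strong constrictor released from its precursor by Ece1, is bound on endothelium by Ednrb and on smooth muscle mainly by Ednra.

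In outline, Ramp3, Ednrb, Apln and Aplnr rose in tumor-associated MLECs, and Calcrl was lower in every tumor-associated library without passing the test across genes. The call of Aplnr ended under 11 of 17 alternatives, and all 4 calls ended with aligned reads as a covariate. Ramp2 was the most abundant of the 10 transcripts in every library. Of the 9 members that passed the filter on low values, 4 (Ramp3, Ednrb, Apln and Aplnr) were called higher and 0 lower by limma at an adjusted p of 0.05, where 3.93% of all genes tested were called in either direction, 2.90% higher and 1.02% lower. At an unadjusted p of 0.05, 7 members passed, 1 of them (Calcrl) lower. Apln, Aplnr, Edn1 and Ramp3 passed the filter through tumor-associated libraries alone, and Ramp1 did not pass it, so that this count is given as a description. Ramp3, Aplnr and Edn1 also belong to the genes that the study had selected as higher on these same libraries, which gives no independent evidence of their direction.

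**Figure D1:**
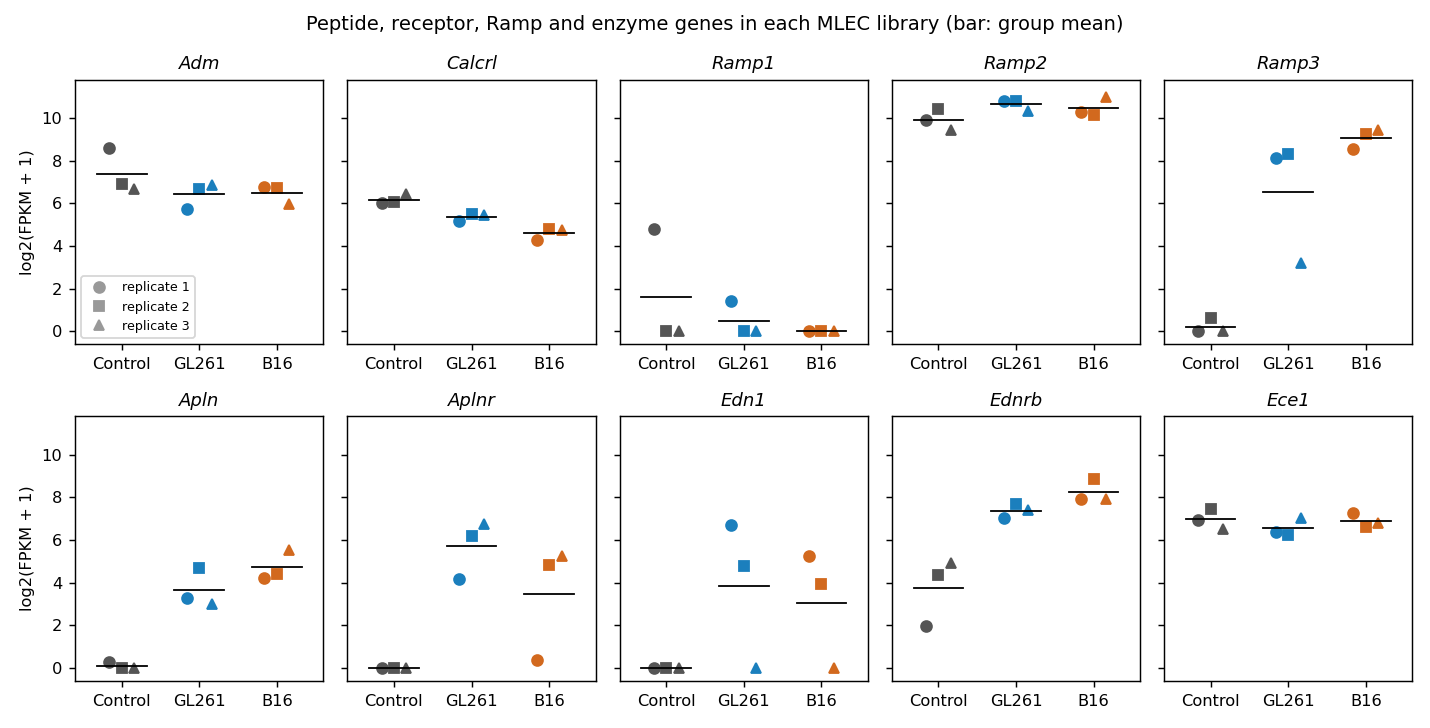
Each point is the log2(FPKM + 1) of a gene in 1 of the 9 MLEC libraries, with replicates 1, 2 and 3 as circles, squares and triangles, and the bar is the mean of the 3 libraries of a group. Ramp3, Ednrb, Apln and Aplnr lie above the control libraries in all 6 tumor-associated libraries, and Calcrl lies below them. Such orders were found upward for 6.08% and downward for 4.44% of all genes tested.

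The promoters of the receptor that was lower and of both genes with the smallest adjusted p are shown for reference, as the 250 bases before the gene start in RefSeq (GRCm38.p6), read 5′ to 3′ on the strand of the gene. Calcrl lay at chr2:84425267-84425516 on the minus strand, Ramp3 at chr11:6658283-6658532 on the plus strand and Ednrb at chr14:103843702-103843951 on the minus strand. Capitals mark matches on either strand to ACGTG or GCGTG, the core bound by hypoxia-inducible factors (HIF), or to ACAATG, a core bound by SOX factors.
Calcrl: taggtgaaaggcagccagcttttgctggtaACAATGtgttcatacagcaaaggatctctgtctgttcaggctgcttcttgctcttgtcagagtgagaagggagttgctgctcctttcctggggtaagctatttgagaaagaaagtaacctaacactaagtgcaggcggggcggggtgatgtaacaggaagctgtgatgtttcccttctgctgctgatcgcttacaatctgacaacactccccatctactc
Ramp3: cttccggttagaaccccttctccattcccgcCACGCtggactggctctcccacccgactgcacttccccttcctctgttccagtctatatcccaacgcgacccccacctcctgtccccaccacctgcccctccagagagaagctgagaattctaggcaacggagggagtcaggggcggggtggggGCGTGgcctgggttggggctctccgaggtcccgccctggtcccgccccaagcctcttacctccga
Ednrb: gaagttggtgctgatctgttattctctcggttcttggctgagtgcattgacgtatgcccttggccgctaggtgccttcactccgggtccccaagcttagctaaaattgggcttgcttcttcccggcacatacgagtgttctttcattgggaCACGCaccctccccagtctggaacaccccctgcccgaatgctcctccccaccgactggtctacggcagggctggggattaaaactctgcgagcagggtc

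The HIF core was present in 38.6% and the SOX core in 10.7% of all 32851 windows of this length. Ramp3 held GCGTG or its reverse complement 219 and 65 bases before the start, Ednrb held it 99 bases before the start, and Calcrl held ACAATG 220 bases before the start. Among the 8 members with a window, which were all but Aplnr and Ramp2, the HIF core was in 4 (Adm, Ece1, Ednrb and Ramp3). The SOX core was in 2 (Calcrl and Ece1). A member counts if any of its windows held the core, and these 8 members had 11 windows. Their shares are therefore not on the same footing as those of single windows. These are matches of letters and not measured binding.

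The libraries differed in more than these genes. Between 7303 and 8688 genes had an FPKM above 0 in control libraries and between 8736 and 10852 in tumor-associated libraries, and by the read table of the study the aligned reads of every control library were below those of every tumor-associated one. The endothelial markers Pecam1, Cdh5, Tie1 and Tek and the lymphatic markers Prox1, Flt4, Lyve1 and Pdpn were above 0 in all 9 libraries. Of 7 lymphatic markers tested, all 7 had a negative log2 difference, and 3 were called lower in tumor-associated MLECs (Flt4, Mmrn1 and Reln). Prox1 was at 20.9 to 42.2 FPKM in control and at 1.87 to 16.5 FPKM in tumor-associated libraries (limma's adjusted p = 0.0509). These groups did not overlap, an order found downward for 4.44% of the genes tested. The 8 genes of the lymphatic list together reached 2584 to 2966 FPKM in control, 802 to 2295 FPKM in GL261 and 925 to 2533 FPKM in B16 libraries. Of 12 blood endothelial markers tested, 7 were called higher and 1, Aqp1, lower, and their sum was 1630.0 to 2598 FPKM for control, 4898 to 6175 FPKM for GL261 and 5256 to 9482 FPKM for B16. Flt1 and Cd34 were at 0.0997 to 0.856 and 0.37 to 14.3 FPKM in control and at 49 to 156 and 153 to 592 FPKM in tumor-associated libraries. Fibroblast markers summed to 16.2 to 49 FPKM in control libraries and 0 to 3.85 FPKM in the others. Of the 8 leukocyte markers, 4 were at 0 in every library, Ptprc among them. The leukocyte list summed to 54.4 to 82.2 FPKM in control libraries and 0.732 to 40.6 FPKM in the others. These are sums over cells, so that fewer cells of a type and less RNA per cell cannot be told apart, and the part of these markers in the results on the 10 genes was not tested.

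**Figure D2:**
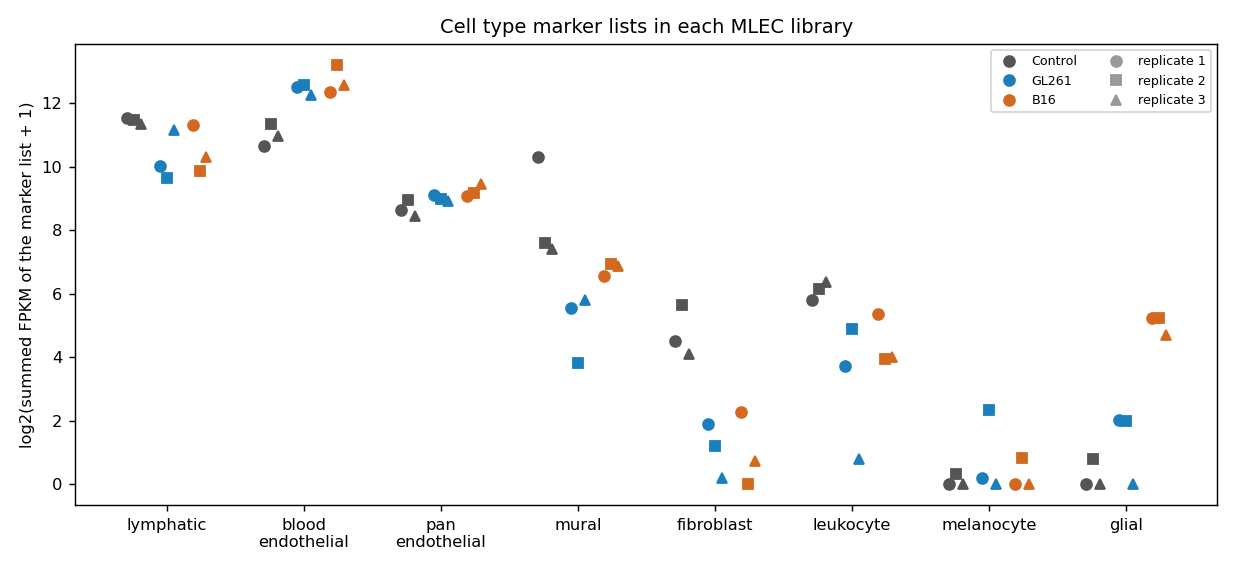
Each point is the summed FPKM of a list of cell type markers in 1 library, as log2(sum + 1), with groups in colors and replicates as symbols. The blood endothelial list is higher in all 6 tumor-associated libraries, and control replicate 1 stands above the other libraries in the mural list with a sum of 1268 FPKM.

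Control replicate 1 held smooth muscle transcripts. Acta2, Tagln and Myh11, which encode contractile proteins of smooth muscle, had 505, 641 and 57.2 FPKM there, and their sum was 0 to 6.34 FPKM in each of the other 8 libraries. Pdgfrb, which marks mural cells, was at 3.96 FPKM in this library and listed at 0 in the others. Other genes of the mural list went the other way. Kcnj8 was at 59.9 FPKM in control replicate 1, beside 195 and 169 FPKM in control replicates 2 and 3. Rgs5 was listed at 0 there, beside 4.54 FPKM in GL261 replicate 2 and 5.05 FPKM in B16 replicate 2. Ptprc, the defining gene of leukocytes, was listed at 0 in all 9 libraries, as were the melanocyte gene Mlana and the astrocyte gene Gfap. The melanocyte gene Pmel was above 0 only in GL261 replicate 2, at 4.07 FPKM, and Aqp4 only in B16 replicate 3, at 0.0893 FPKM.

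Adm stood at 385, 118 and 100.4 FPKM in control, at 52.4, 101 and 117 in GL261 and at 109, 106 and 61.9 in B16 libraries. The highest value was that of control replicate 1, the library with the smooth muscle transcripts, and the other control libraries overlapped with the tumor-associated ones. On the scale log2(FPKM + 1), the difference of tumor-associated from control MLECs was -0.92 with a standard error of 0.46 (limma's adjusted p = 0.297), and without control replicate 1 it was -0.31 (limma's adjusted p = 0.719). Adm lies on chromosome 7 of mm9 from 117771175 to 117773331.

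Calcrl, the receptor for this peptide, had 63.8, 67 and 86.1 FPKM in control, 34.8, 44.5 and 43.2 in GL261 and 18.5, 26.9 and 25.8 in B16 libraries. All 6 tumor-associated libraries lay below all 3 control libraries, an order found downward for 4.44% of the genes tested. Control MLECs averaged 72.3 ± 12.1 FPKM (SD, n = 3), 2.24 times the 32.3 ± 10.4 FPKM (SD, n = 6) of tumor-associated MLECs. On the log2 scale this was -1.19 (standard error 0.42), and no other of the 84 divisions of the libraries into 3 and 6 gave as large a value (exact permutation test, two-sided, p = 0.0119, the smallest it allows). Over all genes limma's adjusted p was 0.143, so Calcrl was not called, and no alternative brought it past the threshold. The gene spans chromosome 2 from 84170783 to 84265568 on the minus strand, with 16 exonic blocks.

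Ramp2 had 969, 1358 and 693 FPKM in control, 1804, 1776 and 1306 in GL261 and 1243, 1141 and 2045 in B16 libraries. The groups overlapped, with a log2 difference of 0.64 (standard error 0.25, limma's adjusted p = 0.191). Part of the annotated Ramp2 locus (chromosome 11, 101107342 to 101120860) overlaps Vps25 on the same strand, which makes its FPKM uncertain where reads are shared.

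Ramp3 had 0, 0.54 and 0 FPKM in control, 279, 314 and 8.31 in GL261 and 378, 608 and 695 in B16 libraries. Every tumor-associated library was above every control library, an order found upward for 6.08% of the genes tested, and GL261 replicate 3 was far below the other tumor-associated libraries. The log2 difference of 7.61 (standard error 1.09, limma's adjusted p = 0.00168, exact permutation p = 0.0119) depends on the pseudocount of 1, since 2 control libraries were listed at 0. Ramp3 met the filter only through tumor-associated libraries, and with every gene above 0 somewhere tested, limma's adjusted p was 0.0149. Without GL261 replicate 3 the log2 difference was 8.53. Ramp3 lies on chromosome 11 from 6558524 to 6577478 and overlaps the antisense transcript Gm11978, whose reads cannot be told apart from those of Ramp3 without strand.

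Ramp1 had 26.8 FPKM in control replicate 1 and 1.71 in GL261 replicate 1 and was listed at 0 in the other 7 libraries. The library with the high value was again the one with the smooth muscle transcripts. Ramp1 did not pass the filter on low values and was not tested.

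As FPKM are per length, the Ramps were also compared with one another. Ramp3 made up 0 to 0.0398% of the summed Ramp FPKM in control libraries, 13.4%, 15% and 0.633% in GL261 and 23.3%, 34.8% and 25.4% in B16 libraries, and Ramp2 made up nearly all of the rest. The log2 ratio of Ramp3 to Ramp2, each with a pseudocount of 1, averaged -9.71 ± 0.25 (SD, n = 3) for control MLECs, and the tumor-associated ones averaged -2.75 ± 2.24 (SD, n = 6). The difference was 6.97, which none of the other divisions reached (exact permutation test, two-sided, p = 0.0119). This separation follows from that of Ramp3, which was at most 0.54 FPKM in control libraries, and the p is no further evidence beside that of Ramp3. Since Ramp3 was listed at 0 in 2 control libraries, the size of this difference rests on the pseudocount: with 0.1 in place of 1 it was 9.58, and the control mean was -12.35 ± 1.15 (SD, n = 3).

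There were 8.04 to 20.3 Ramp transcripts per Calcrl transcript in control libraries, by the ratio of their FPKM. The ratio was 60, 47 and 30.4 in GL261 and 87.6, 65 and 106 in B16 libraries. All tumor-associated libraries lay above all control libraries, and this ratio was chosen after the values had been seen and was not tested.

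**Figure D3:**
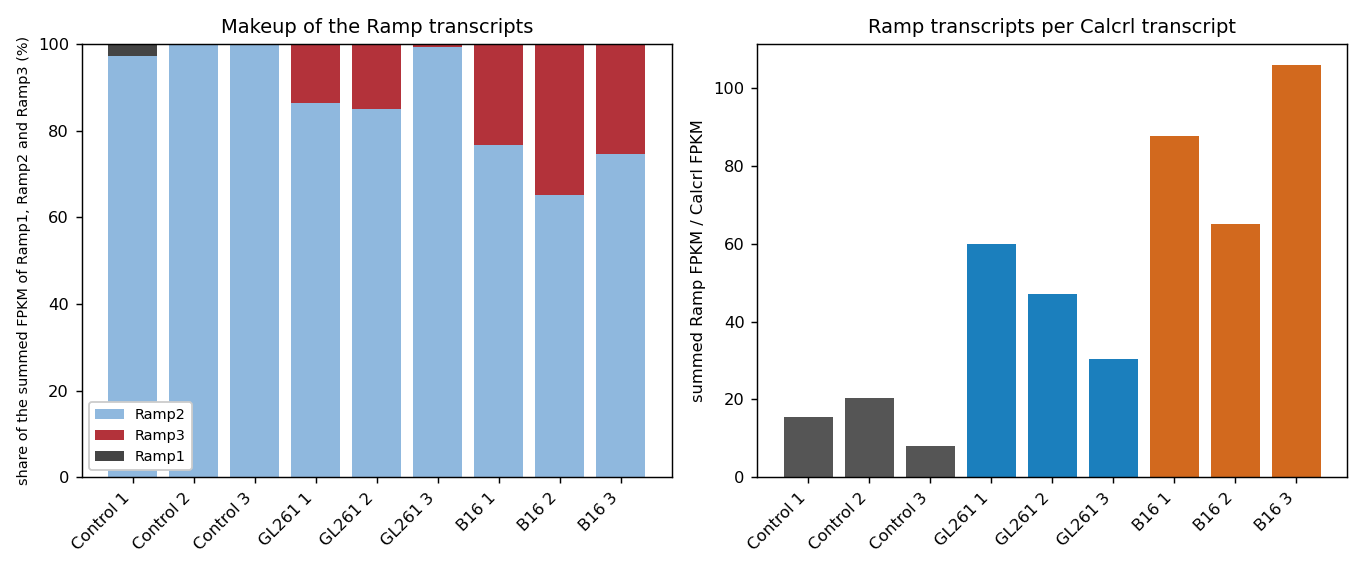
Left, the share in percent of Ramp1, Ramp2 and Ramp3 in their summed FPKM in each library. Right, the summed FPKM of the 3 Ramps divided by the FPKM of Calcrl, which is 8.04 to 20.3 in control and 30.4 to 106 in tumor-associated libraries.

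Apln, the peptide gene of the apelin pair, had 0.208 FPKM in control replicate 1 and 0 in control replicates 2 and 3. It had 8.61, 24.7 and 7.12 FPKM in GL261 and 17.7, 20.3 and 45.5 in B16 libraries. The groups did not overlap, an order found upward for 6.08% of the genes tested. The log2 difference was 4.10 (standard error 0.72, limma's adjusted p = 0.00672, exact permutation p = 0.0119), and it stayed between 3.83 and 4.33 when any single library was left out. Apln also met the filter only through tumor-associated libraries, and without this filter limma's adjusted p was 0.0143. Apln lies on chromosome X from 45378323 to 45388030.

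Aplnr, its receptor, was listed at 0 in all 3 control libraries. It had 17.3, 72 and 107 FPKM in GL261 and 0.293, 27.3 and 36.8 in B16 libraries. The value of B16 replicate 1 was close to the control, and the other 5 tumor-associated libraries were well above it. Limma's adjusted p was 0.0431 (exact permutation p = 0.0119), and 11 of 17 alternatives ended the call. Aplnr met the filter only through tumor-associated libraries, and its call was among those lost without the filter (limma's adjusted p = 0.112). Without B16 replicate 1 the adjusted p from limma was 0.00171, and with any 1 of the other libraries left out it was 0.0767 to 0.101. Aplnr is a single exon on chromosome 2 from 84976517 to 84980079.

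Edn1 was listed at 0 in all control libraries, in GL261 replicate 3 and in B16 replicate 3. The other tumor-associated libraries had 102 and 26.8 FPKM (GL261) and 37 and 14.3 FPKM (B16). The groups therefore overlapped at 0, and limma's adjusted p was 0.201 (exact permutation p = 0.167). Edn1 lies on chromosome 13 from 42396639 to 42403358.

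Ednrb, the endothelial receptor for this peptide, had 2.89, 19.4 and 29 FPKM in control, 132, 204 and 167 in GL261 and 242, 463 and 243 in B16 libraries. The lowest tumor-associated value was above the highest control value, an order found upward for 6.08% of the genes tested. Control MLECs averaged 17.1 ± 13.2 FPKM (SD, n = 3), and tumor-associated MLECs averaged 241 ± 117 FPKM (SD, n = 6), which was 14.1 times as much. The log2 difference was 4.07 (standard error 0.59, limma's adjusted p = 0.00189, exact permutation p = 0.0119), and leaving out any 1 library kept it between 3.18 and 4.65. Without control replicate 1, which had the lowest value, it was 3.18. Ednrb lies on chromosome 14 from 104213842 to 104243390.

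Ednra, the receptor of smooth muscle, was above 0 only in control replicate 1, at 11.9 FPKM. Melanocyte and glial lineages are also known to express Ednrb. Of the marker lists of these cells, S100b had 25.3 to 37 FPKM in the B16 libraries, where Ednrb was highest, and 0 to 3 FPKM in the other 6 (B16 against control, log2 difference 4.80, limma's adjusted p = 0.0135). S100b was singled out after its values were seen and met the filter only through tumor-associated libraries, so that this is a description. The melanocyte list summed to at most 0.258 FPKM in control, 4.07 FPKM in GL261 and 0.783 FPKM in B16 libraries. The glial list summed to at most 0.739 FPKM in control and 3.04 FPKM in GL261 libraries and to 25.4 to 37 FPKM in B16 libraries. S100b made up nearly all of the B16 sums, so that they add nothing beside it. Of the 6 glial genes listed, 3 were at 0 in all libraries. Mlana and Gfap were listed at 0 in each library. The part of these markers in the Ednrb result was not tested.

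Ece1 had 122, 176 and 90.4 FPKM in control, 81.9, 75 and 129 in GL261 and 151, 95.7 and 109 in B16 libraries. The groups overlapped, and the log2 difference was -0.26 (standard error 0.35, limma's adjusted p = 0.740), with a 95% confidence interval from -1.02 to 0.49. The locus on chromosome 4 (137418152 to 137521144) overlaps the antisense transcript Gm13012.

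Depth could not be separated from tumor status in these libraries. With the log2 of the study's aligned reads in the model, limma called 0 of the 9 members (4 at an unadjusted p of 0.05) and 9 of all genes. The log2 difference was then 4.91 for Ednrb (adjusted p = 0.0891), 7.80 for Ramp3 (adjusted p = 0.167) and 4.26 for Apln (adjusted p = 0.248). It was -1.88 for Calcrl (adjusted p = 0.339), and the adjusted p of Aplnr was 0.813. Over the 17 alternatives, this covariate among them, the lowest log2 difference of Aplnr was 1.38, beside 4.60 in the main fit. For GL261 against control the lowest was 1.47 for Ramp3, 1.72 for Apln and 2.00 for Aplnr, beside 6.34, 3.57 and 5.71 in the main fit. For Ednrb it was 2.74 beside 3.63. The median log2 difference of all genes tested was 0.20 with FPKM as deposited and 0.05 after rescaling to equal sums, and 4 members were called either way. Rescaling changed the split of all called genes from 289 higher and 102 lower to 209 higher and 120 lower.

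Both tumors were also compared with the control separately, and these comparisons share the control libraries. In GL261 MLECs limma called 4 of the 9 members higher (Ramp3, Aplnr, Ednrb and Apln), where 3.49% of all genes were called, 2.58% higher and 0.904% lower. As Ramp3, Aplnr and Apln met the filter without the control libraries, their calls and the counts of members in both tumors are descriptions. With every gene above 0 somewhere tested, 3 members were called in GL261 and 3 in B16 MLECs. The sizes of these 3 genes' differences depend on the pseudocount, since their control values were at or near 0. The log2 differences were 6.34 for Ramp3 (standard error 1.09, adjusted p = 0.0103), 3.63 for Ednrb (standard error 0.67, adjusted p = 0.0133) and 3.57 for Apln (standard error 0.80, adjusted p = 0.0341), and the adjusted p of Aplnr was 0.0279. This count was the least stable: it was 2 without control replicate 1, 2 or 3, 1 without GL261 replicate 3 and 0 without GL261 replicate 1 or 2, which leaves 2 GL261 libraries.

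In B16 MLECs 3 members were called, Ramp3, Ednrb and Apln, where 2.11% of all genes were called, 1.61% higher and 0.502% lower. The log2 differences were 8.88 for Ramp3 (standard error 1.09, adjusted p = 0.00206), 4.50 for Ednrb (standard error 0.67, adjusted p = 0.00532) and 4.64 for Apln (standard error 0.80, adjusted p = 0.0127). The difference of Calcrl was -1.57 in B16 (standard error 0.44, limma's adjusted p = 0.101) and -0.81 in GL261 MLECs (standard error 0.44, limma's adjusted p = 0.394), and Aplnr had an adjusted p of 0.205 in B16 MLECs. The B16 call of Apln ended without B16 replicate 2 (limma's adjusted p = 0.0506) or 3 (0.0788), and Aplnr was called without B16 replicate 1 (0.0290).

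**Figure D4:**
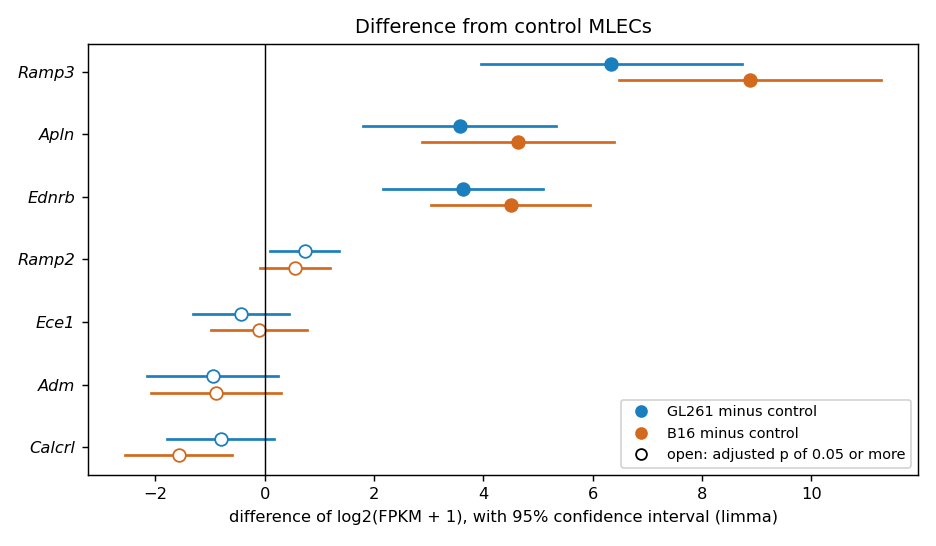
Differences of GL261 (blue) and B16 (orange) from control MLECs in log2(FPKM + 1) for the 7 tested members with an FPKM above 0 in some control library, with limma's 95% confidence intervals. Filled points (adjusted p under 0.05) are those of Ramp3, Apln and Ednrb in both tumors, and open points did not pass.

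Between GL261 and B16 MLECs limma called 0 of the 9 members, where 0.0100% of all genes were called, and 1 member, Ramp3, had an unadjusted p under 0.05. Ramp3 and Ednrb were lower and Calcrl was higher in each GL261 library than in each B16 library, an absence of overlap found for 13.8% of the genes tested. The difference, GL261 minus B16, was -2.54 for Ramp3 (95% confidence interval -4.93 to -0.15), -0.86 for Ednrb (-2.32 to 0.60) and 0.77 for Calcrl (-0.20 to 1.74). Without GL261 replicate 3 the difference of Ramp3 was -0.87 (limma's unadjusted p = 0.130). These intervals do not show that both tumors acted alike. Tumor type cannot be told apart from the time of collection, which by the labels was 3 weeks for GL261 and 2 weeks for B16.

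The wider set of 44 genes of these pathways was then examined. All 6 other peptide genes listed (Adm2, Calca, Calcb, Apela, Edn2 and Edn3) were at 0 in all libraries. Of the 44 genes 30 were tested, and 1 was called higher and 2 lower in tumor-associated MLECs, beside 2.90% of all genes called higher and 1.02% lower. The median log2 difference was 0.57 beside 0.20 over all genes.

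Ackr3, a scavenger receptor for adrenomedullin and for the chemokine CXCL12, was the gene called higher. It had 0.678, 8.44 and 0.458 FPKM in control, 96.8, 37.7 and 33.7 in GL261 and 145, 48.3 and 214 in B16 libraries. The groups did not overlap, an order found upward for 6.08% of the genes tested. Its log2 difference was 4.75 (standard error 0.76, limma's adjusted p = 0.00341).

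Pcsk6, a convertase that cuts proproteins, was at 72.9, 109 and 102 FPKM in control and within 3.26 to 17.7 in tumor-associated libraries. Gnas, which encodes the Gs protein that couples Calcrl to cyclic AMP, was at 1548, 1615 and 1777 FPKM in control and within 404 to 777 in tumor-associated libraries. Both fell without overlap, an order found downward for 4.44% of the genes tested. The fall was 3.38 on the log2 scale for Pcsk6 (limma's adjusted p = 0.00526) and 1.52 on the log2 scale for Gnas (limma's adjusted p = 0.00189).

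Pam, the enzyme that amidates adrenomedullin, had 48.4, 82 and 88.3 FPKM in control and 22 to 43.6 in tumor-associated libraries (limma's adjusted p = 0.188). These groups did not overlap, again an order found downward for 4.44% of the genes tested. Ece2, a relative of Ece1, had 0, 0 and 1.11 FPKM in control and 0 to 57.9 in tumor-associated libraries (limma's adjusted p = 0.0836).

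**Figure D5:**
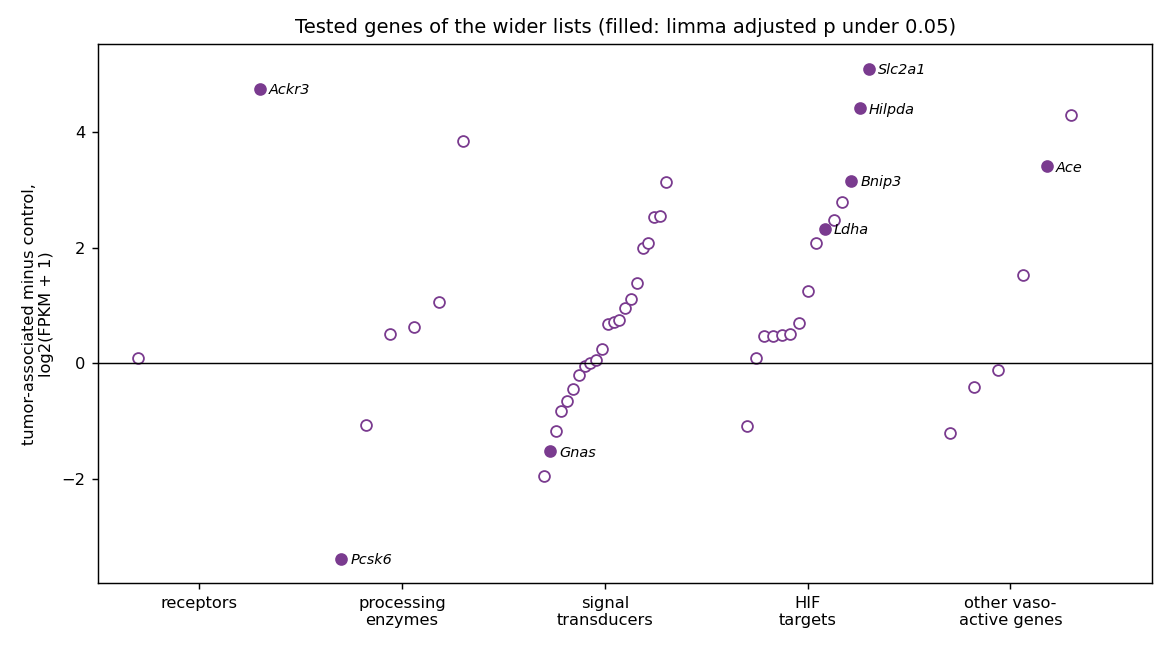
Each point is the difference, tumor-associated minus control, in log2(FPKM + 1) of a tested gene of the wider lists, ordered by size within a list. Filled and named points have an adjusted p under 0.05 from limma, with Ackr3 higher and Pcsk6 and Gnas lower among the genes of the peptide pathways.

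The genes whose pattern was most like that of each receptor were taken by Pearson's r of log2(FPKM + 1) over the 9 libraries, which share the step from control to tumor, and r within the 6 tumor-associated libraries is given beside it. For Calcrl these were Tslp (r = 0.971, within tumor 0.902), Mtch2 (0.94 and 0.89) and Rab27a (0.938 and 0.876). Tslp, a cytokine gene, had 17.2 to 33.1 FPKM in control and 3.63 to 5.5 in GL261 libraries and was listed at 0 in the B16 libraries.

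For Aplnr they were Hcls1 (0.989 and 0.982), Mrs2 (0.984 and 0.962) and Plcb3 (0.975 and 0.952), which were all listed at 0 in the 3 control libraries and in B16 replicate 1. For Ednrb they were Smarcd2 (0.988 and 0.901), Col4a1 (0.985 and 0.8) and Sparc (0.979 and 0.69). Col4a1, a collagen of the basement membrane, had 22.8 to 75.8 FPKM in control and 178 to 311 in tumor-associated libraries.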

How the data were processed

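MLECs were profiled by a Smart-seq2 type RNA-seq in 3 control, 3 GL261 and 3 B16 libraries. The authors trimmed the reads, mapped them to mm9 (TopHat 2.0.12) and quantified genes by Cufflinks 2.2.1. The deposited values are FPKM, 1 per gene and library. The gene annotation given to Cufflinks is not given in the sources used here. The table holds no read counts, so that no count model was fitted and no counting error is attached to a value. An FPKM of 0 can be a failed estimate and is reported as listed at 0.

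Log2(FPKM + 1) was tested with limma 3.58.1 in R 4.3.3 (lmFit, eBayes with a trend) on the 9955 genes that reached an FPKM of 1 in 3 or more libraries. P-values were adjusted over all of them by Benjamini-Hochberg, and the threshold was 0.05. Tumor against control used 2 groups, and the other comparisons used 3 groups with 1 estimate of the spread. For single genes and the Ramp ratio, exact permutation tests (two-sided) ran over the 84 divisions into 3 and 6 libraries, whose smallest p is 0.0119. In such a test 3 against 3 libraries cannot go below 0.1. The alternatives were a pseudocount of 0.1, rescaling to a sum of 1000000, quantile normalization, other filters (any FPKM above 0, or a mean of at least 10), no trend, a replicate block, aligned reads as a covariate, and leaving out each library. Gene positions are those of GENCODE M1, whose coordinates are mm9, and promoters are from RefSeq on GRCm38.p6. Python 3.11.15, pandas 2.3.3 and matplotlib 3.10.9 were used for tables and figures.

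The members, the gene lists and the tests were chosen with earlier results of these data known. The genes named are the members, called genes and defining genes of the wider pathway list, called genes of the lists of HIF targets and other vasoactive genes (up to 5 by p), defining cell type markers, and the 3 genes most like each receptor. Acta2 was fixed among the markers. Tagln, Myh11, Kcnj8, Rgs5, Rgs4, S100b, Mmrn1, Reln, Aqp1, Pecam1, Cdh5, Tie1 and Tek were singled out from their lists after their values were seen.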

Additional observations from a re-analysis of the deposited data

Results flagged for a closer look

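Each of the 10 members was examined for a library apart from the others of the 6 tumor-associated libraries, by the gap of the highest or lowest log2(FPKM + 1) to its neighbor as a share of the range, with 0.625 as the limit. Chance passes this limit in about 1 in 20 groups. Ramp3 in GL261 replicate 3 had a gap of 0.789 of the range: it was at 8.31 FPKM, beside 279 to 695 in the other 5 libraries. The same library had the highest Prox1 of the tumor-associated libraries, 16.5 FPKM beside 1.87 to 3.72, while its Flt1 and Cd34 of 99.1 and 396 FPKM lay within the range of the others. Ramp1 in GL261 replicate 1 had a gap of 1, since it was at 1.71 FPKM and listed at 0 in the other 5 libraries.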

How the results depend on the processing

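For the 9 members tested, 17 alternatives were run in each comparison. No called member turned its direction in any of them. Against control, the calls of Ramp3, Ednrb and Apln in tumor-associated MLECs ended only with aligned reads as a covariate. That covariate left 0 members called in tumor-associated, GL261 or B16 MLECs against control, and 9, 2 and 5 of all genes. Without a filter on low values, 254, 218 and 135 of all genes were called, which is a larger set of tests. Leaving out 1 library gave 245 to 444 genes in tumor-associated, 105 to 363 in GL261 and 69 to 274 in B16 MLECs, with 0 to 4 members in GL261 MLECs. Between GL261 and B16, 1 gene was called, 2 after quantile normalization, 6 without a trend and 1 to 4 with a library left out.

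Same-numbered libraries did not deviate together (r from -0.03 to 0.04 over 9 pairs), and differently numbered ones had r from -0.03 to 0.05. The libraries were therefore not treated as pairs. These values cannot exclude that same-numbered libraries were handled together. With the replicate block 303, 230 and 146 genes were called in tumor-associated, GL261 and B16 MLECs against control. Among members the block ended the call of 1, in GL261 MLECs. The difference of the Ramp ratio stayed at 6.97 (exact permutation p = 0.037, the smallest that its 27 divisions allow). As above, it follows from the separation of Ramp3 and is no further evidence.

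Members that were not called turned their sign as follows, and the cause was not tested. With the aligned reads, Ece1 was at 0.23 in tumor-associated, 0.18 in GL261 and 0.22 in B16 MLECs, Ramp2 at -0.56 in GL261 and -0.12 in B16 MLECs, and, GL261 minus B16, Adm at 0.22 and Ramp2 at -0.43. Ramp2 was at -0.077 in the last comparison after quantile normalization. With a library left out, Ece1 in B16 MLECs lay between -0.33 and 0.15, and, GL261 minus B16, Adm between -0.33 and 0.28 and Edn1 between -0.76 and 2.68.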

Other observations

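Further groups of genes are given as values. Of 17 target genes of hypoxia-inducible factors, a list in which Adm and Edn1 are also usually counted, 15 were tested and 4 were called higher and 0 lower in tumor-associated MLECs by limma, beside 2.90% of all genes called higher (1 of the 15, Ndrg1, was lower at an unadjusted p of 0.05). The glucose transporter gene Slc2a1 had 17.9, 7.37 and 0 FPKM in control and 77.6 to 312 in tumor-associated libraries (limma's adjusted p = 0.00213). Ldha, a lactate dehydrogenase subunit, had 107, 111 and 44.1 FPKM in control and 217 to 559.9 in tumor-associated libraries. It differed by 2.33 on the log2 scale (limma's adjusted p = 0.00382). Bnip3 had 2.97 to 18.1 FPKM in tumor-associated libraries and was listed at 0 in each control (limma's adjusted p = 0.0279), and Hilpda overlapped between the groups (limma's adjusted p = 0.0409). Bnip3 met the filter only through tumor-associated libraries, so that its call and the count of 4 are descriptions. The median log2 difference of the list was 1.25, beside 0.20 over all genes tested.

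Of 19 genes of other vasoactive peptides and their receptors, 6 were tested and Ace, which makes angiotensin II, was called. Its FPKM was 4.65 to 21.1 in GL261 libraries and 4.38 to 13.4 in B16 libraries, and each control library was listed at 0 (limma's adjusted p = 0.0181). Ace met the filter only through tumor-associated libraries, so that this call is given as a description. Rgs4, a regulator of G protein signaling, was above 0 only in control replicate 1, at 19.5 FPKM, as were Ednra and Pdgfrb. S100b had 25.3 to 37 FPKM in B16 libraries and 0 to 3 FPKM in all others. It was called in B16 against control (limma's adjusted p = 0.0135), and its adjusted p was 0.856 in GL261 and 0.291 in all tumor-associated MLECs against control. As S100b was singled out after its values were seen and met the filter only through tumor-associated libraries, this call is a description.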
